A study of Mus musculus with 30 samples.

Results

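The nuclear genome encodes most protein subunits of the 5 complexes of oxidative phosphorylation, and 86 such genes were followed here in microglia sorted from mice, the macrophages that live in the brain and spinal cord. They were taken by symbol from the 46078 genes of the count table: protein-coding genes whose GENCODE M21 symbol begins with Nduf (but not Ndufaf, the assembly factors), Uqcr, Cox4i, Cox5, Cox6, Cox7, Cox8 or Atp5, with Sdha, Sdhb, Sdhc, Sdhd and Cyc1 added. The rule uses symbols alone, but it was chosen with earlier results of these data known. It gave 38 genes of complex I, 4 of complex II, 9 of complex III, 18 of complex IV and 17 of complex V. In all, 80 passed the filter on low counts and were tested, beside 13880 genes in total.

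The 30 libraries came from C57BL/6 mice in 8 groups. Young knockout (KO) mice carried Atg7fl/fl with Cx3cr1CreERT, a tamoxifen-dependent Cre driven from a gene that microglia and other myeloid cells use, so that Atg7, an enzyme needed to build autophagosomes, could be deleted there. Young wild-type (WT) controls carried Atg7wt/wt with Cx3cr1CreERT2, so controls also carried a Cre and, per the labels, also received tamoxifen (3 doses of 4 mg, 48 h apart). Old mice are labelled Atg7 wild type, and the labels give neither their Cre status nor any age beyond young or old. Experimental autoimmune encephalomyelitis (EAE), an induced neuroinflammation, followed tamoxifen by at least 18 days and was started with recombinant mouse myelin oligodendrocyte glycoprotein (residues 1 to 125) and pertussis toxin. Naive groups had 4 libraries each of WT, KO and old mice, day 21 of EAE had 3 WT and 4 KO libraries, and day 35 had 4 WT, 4 KO and 3 old libraries. Cells were sorted as live CD11b+, CD45 intermediate and Ly6G-, and/or eYFP+, and lysates of female and male mice were pooled 1:1. The labels do not say that the libraries of a group came from separate animals, so every p-value below measures only the spread between these libraries.

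Library totals ran from 4712803 to 11034565 counts (median 6769302). All 15 homeostatic microglia markers had counts in every group, with a summed level of 33625 to 49315 CPM (counts scaled to library size with TMM factors) in naive WT and 13813 to 14839 in day 21 KO. Neutrophil markers, including S100a8 and S100a9, were also present despite the Ly6G- gate: they summed to 2031 to 16998 CPM in naive WT, 7516 to 13851 in naive old, 639 to 3098 in naive KO, 484 to 607 in day 21 KO, 599 to 811 in day 35 WT and 691 to 32522 in day 35 old, where replicate 1 held the highest value. Monocyte markers summed to 2138 to 2928 CPM in day 21 KO and 182 to 487 in day 21 WT. In bulk RNA, fewer cells of a type and less RNA per cell cannot be told apart. Atg7 counts cover the whole gene, and the deleted exon is not given in the labels, so they check little: Atg7 stood at 20.2 ± 8.62 CPM in naive KO against 31.6 ± 6.32 in naive WT (SD, n = 4 each) and at 32.5 ± 1.54 in day 35 KO against 22.5 ± 1.41 in day 35 WT. For day 35 WT replicate 3 the title says wild type and the knockout status says KO; it was kept as WT.

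Oxidative phosphorylation passes electrons from NADH through complex I (NADH dehydrogenase), or from succinate through complex II (succinate dehydrogenase), to complex III and then by cytochrome c to complex IV (cytochrome c oxidase). Complexes I, III and IV pump protons across the inner mitochondrial membrane, and complex V (ATP synthase) uses the return flow to make ATP. Complex II is encoded in the nucleus alone, while the other complexes also need subunits made from mitochondrial DNA. Microglia, like other macrophages, are known to shift between oxidative phosphorylation and glycolysis on activation.

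The members spanned a wide range of levels. On a scale of counts per kilobase of exonic length, scaled to the same total in every library and averaged over the 8 groups, the highest level in complex I was that of Ndufa2 (80.8) and the lowest tested was that of Ndufb4 (1.93), both accessory subunits. Sdha, the catalytic flavoprotein of complex II, led its complex at 69.6, ahead of the membrane anchor Sdhd at 40.1, the iron-sulfur subunit Sdhb at 37.5 and the membrane anchor Sdhc at 14.5. In complex III, Uqcrh, the hinge protein, stood at 72.5 and Cyc1, cytochrome c1, at 20.9. Cox8a led complex IV at 111 and Cox6b2 was lowest at 2.4. Atp5a1, the alpha subunit of the catalytic head, led complex V at 135, and Atp5l, the g subunit of the membrane part, was lowest at 0.68. The exonic length joins all annotated transcripts of a gene (6443 bases for Atp5l), so a gene with long rarely used exons reads low on this scale.

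Where complex IV has paired isoforms, the ubiquitous one was the higher on the same scale in each pair. Cox6a1 stood at 108 and its muscle and heart counterpart Cox6a2 at 15.9, Cox6b1 at 71.1 and the testis isoform Cox6b2 at 2.4, Cox7a2 at 31.6 and the muscle isoform Cox7a1 at 0.656, and Cox8a at 111 and Cox8b at 0.457. Cox4i1, the ubiquitous form of subunit 4, stood far above its lung form Cox4i2 (0.154). Cox7a2l, a relative of Cox7a2 that helps join complexes into supercomplexes, stood at 51.2 and Cox7b at 29.9. Of the 3 genes that encode the same c-ring subunit of ATP synthase, Atp5g3 was at 21.5, Atp5g1 at 1.34 and Atp5g2 at 1.19. Ndufa4, named for complex I and since assigned to complex IV, stood at 13.3. The 6 members that were not tested were Cox4i2, Cox7a1 and Cox8b, with 13, 35 and 19 counts over all 30 libraries, and Ndufa4l2, Cox7b2 and Cox8c, with 0 counts of 207271949, which allows up to 0.0145 CPM from counting error alone.

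Summed over all 86 members, the group mean was highest in naive old microglia and lowest in the WT groups with EAE. The sum was 2333, 2760.0, 2723 and 2497 CPM in the 4 naive WT libraries and 2675, 2516, 2339 and 2061 in the 4 naive KO libraries. Naive old libraries stood at 3655, 3611, 3114 and 2803 CPM, all above every naive WT library. With EAE, WT libraries stood at 1932, 2136 and 2166 CPM on day 21 and at 1742, 1700.4, 2235 and 2075 on day 35, all below every naive WT library. KO libraries stood at 2284, 2437, 2446 and 2337 CPM on day 21, above every WT library of that day, and at 2245, 2195, 2938 and 2165 on day 35. On day 35 WT replicate 3 at 2235, whose labels disagree on the genotype, lay inside the KO range. The other WT libraries of that day lay below every KO library. Day 35 old libraries stood at 2619, 2584 and 2099 CPM.

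**Figure D1:**
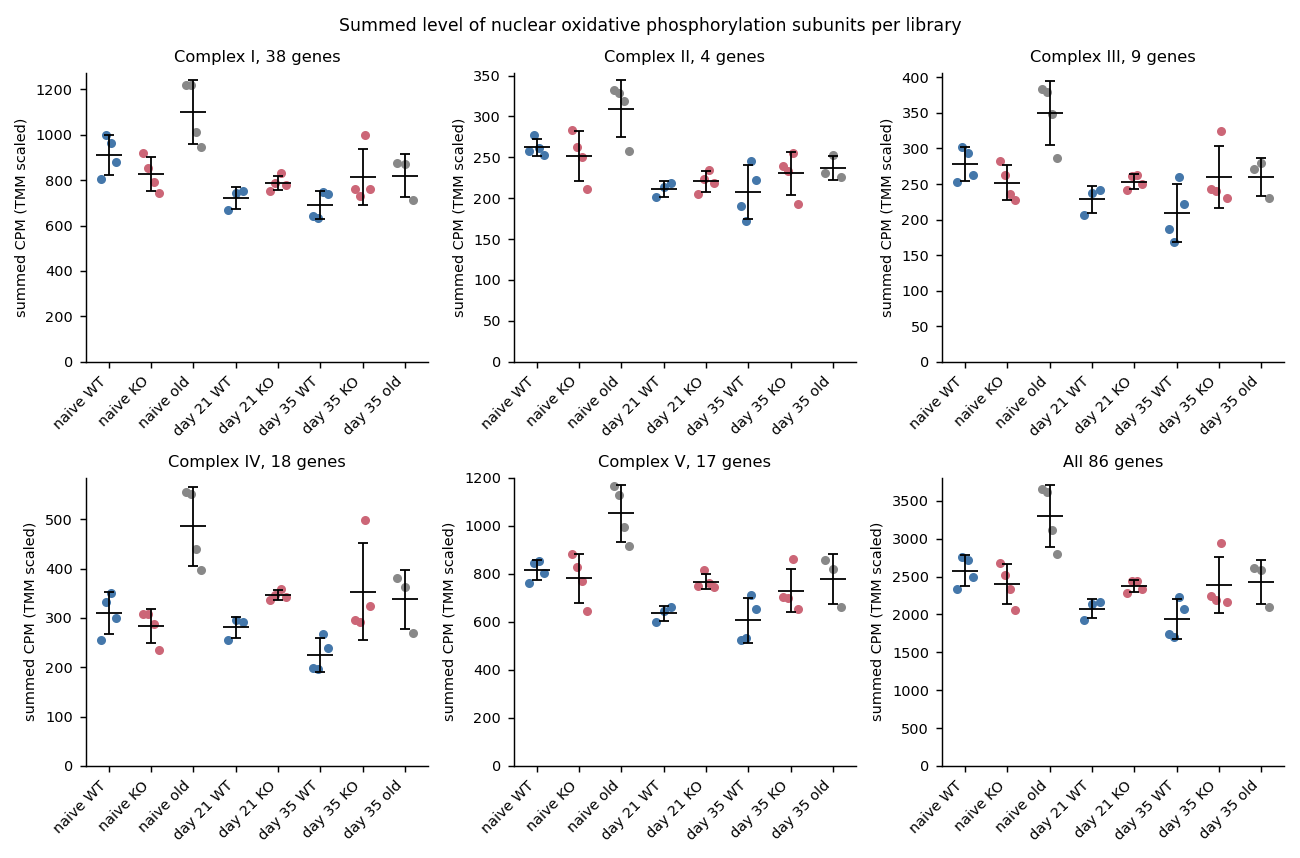
Summed CPM (TMM scaled, y axis) of the nuclear subunits of each complex and of all 86 genes in each of the 30 libraries (points; x axis, group), with the group mean and SD as bars (WT blue, KO red, old grey). For all 86 genes the naive old libraries lie between 2803 and 3655 CPM, above the naive WT range of 2333 to 2760.0, and the day 21 WT libraries lie between 1932 and 2166.

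Complex I made up 35.4 ± 0.714% of the summed CPM in naive WT (SD, n = 4), complex II 10.2 ± 0.62%, complex III 10.8 ± 0.195%, complex IV 12 ± 0.796% and complex V 31.7 ± 0.862%. The share of complex IV had the widest range over the groups, from 11.6 ± 0.261% in day 35 WT to 14.7 ± 0.63% in naive old, 14.6 ± 0.223% in day 21 KO (n = 4 each) and 14.6 ± 1.78% in day 35 KO. These shares are given as a description, with no test.

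The bases just before the transcription starts of 6 members are printed here as a description. For each complex, the member shown was called in the most of the 12 two-group comparisons among the 24 whose window could be placed. The further gene, Ndufa11, was called in 0 of these comparisons. It is shown because it holds a motif of nuclear respiratory factor 1, a regulator of respiratory genes. RefSeq windows (GRCm38.p6) of 250 bases before to 50 after the start matched 67 of the 86 members by symbol. The 24 are those whose RefSeq start lay within 100 bases upstream of the GENCODE gene model or at most 1 base inside it. The 250 upstream bases are shown 5′ to 3′ on the gene's strand. They are chrX:37191239-37191488 (minus strand) for Ndufa1, chr9:50603850-50604099 (minus) for Sdhd, chr4:116075071-116075320 (minus) for Uqcrh, chr9:57520982-57521231 (plus) for Cox5a, chr2:73911327-73911576 (minus) for Atp5g3 and chr17:56717512-56717761 (plus) for Ndufa11. Capitals mark a match to 1 of the 5 motifs searched.
Ndufa1: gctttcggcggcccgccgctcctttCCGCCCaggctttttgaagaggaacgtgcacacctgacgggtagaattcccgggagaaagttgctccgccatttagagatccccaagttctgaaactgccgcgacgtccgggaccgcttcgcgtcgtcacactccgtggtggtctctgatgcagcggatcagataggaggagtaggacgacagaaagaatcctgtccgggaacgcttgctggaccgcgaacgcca
Sdhd: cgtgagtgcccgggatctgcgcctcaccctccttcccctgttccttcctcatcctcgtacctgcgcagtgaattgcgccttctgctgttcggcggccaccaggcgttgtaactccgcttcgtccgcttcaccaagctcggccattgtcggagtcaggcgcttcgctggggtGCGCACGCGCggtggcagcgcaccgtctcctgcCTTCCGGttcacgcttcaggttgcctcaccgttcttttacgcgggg
Uqcrh: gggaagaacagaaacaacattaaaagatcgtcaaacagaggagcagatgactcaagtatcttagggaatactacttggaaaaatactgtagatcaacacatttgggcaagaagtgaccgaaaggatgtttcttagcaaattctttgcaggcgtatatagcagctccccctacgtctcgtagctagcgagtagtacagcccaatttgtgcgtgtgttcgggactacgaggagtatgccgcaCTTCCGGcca
Cox5a: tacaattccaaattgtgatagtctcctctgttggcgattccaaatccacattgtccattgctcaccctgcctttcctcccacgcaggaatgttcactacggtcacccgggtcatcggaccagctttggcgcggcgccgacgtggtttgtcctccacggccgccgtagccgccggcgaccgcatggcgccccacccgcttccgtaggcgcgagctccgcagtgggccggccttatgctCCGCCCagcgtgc
Atp5g3: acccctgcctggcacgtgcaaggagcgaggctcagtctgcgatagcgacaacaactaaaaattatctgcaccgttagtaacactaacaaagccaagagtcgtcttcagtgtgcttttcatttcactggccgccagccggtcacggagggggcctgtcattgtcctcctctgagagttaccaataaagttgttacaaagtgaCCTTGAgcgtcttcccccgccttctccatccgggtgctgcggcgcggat
Ndufa11: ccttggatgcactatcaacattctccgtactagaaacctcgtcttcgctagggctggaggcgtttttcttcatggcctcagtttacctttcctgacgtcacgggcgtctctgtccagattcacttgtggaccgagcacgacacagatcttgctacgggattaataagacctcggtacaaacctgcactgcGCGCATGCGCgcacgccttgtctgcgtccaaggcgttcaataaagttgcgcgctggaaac

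The motifs were the ETS core CCGGAAG, the nuclear respiratory factor 1 core (GCGCA and GCGC with any base between), the YY1 core AAGATGG, the Sp1 core GGGCGG and the estrogen-related receptor core TCAAGG, on both strands of the whole 300-base window, and no motif's letters contain another's. In capitals, Sdhd holds the nuclear respiratory factor 1 core and the ETS core, Uqcrh the ETS core, Ndufa1 and Cox5a the Sp1 core, Atp5g3 the estrogen-related receptor core and Ndufa11 the nuclear respiratory factor 1 core. The ETS, Sp1 and estrogen-related receptor matches shown lie on the other strand. The nuclear respiratory factor 1 core was in 17 of 67 member windows (25.4%), in 11.8% of 9458 other tested protein-coding genes and in 5.19% of all 27025 genes with a window. The shares for members, other tested coding genes and all genes were 23.9%, 20.4% and 9.93% for the ETS core, 14.9%, 8.54% and 7.28% for YY1, and 22.4%, 14.3% and 16.4% for the estrogen-related receptor core. The Sp1 core was in 40.3% of member windows, 68.7% of other tested coding genes and 38.2% of all genes. A match is a run of letters and no measured binding site. Of the regulators themselves, Nrf1 stood at 61.6 CPM in naive WT and 49 to 61.1 in the other group means, and Ppargc1a, the coactivator PGC-1 alpha, stayed at 1.31 CPM or less in each group mean.

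In WT microglia, many nuclear subunit genes were lower with EAE. At day 21 against naive, 16 of 80 members were lower and 1 was higher (edgeR quasi-likelihood test, Benjamini-Hochberg adjusted p under 0.05 over all 13880 genes), where 12% of all tested genes were called lower and 9.51% higher. At day 35, 28 of 80 were lower and none was higher (0 at an unadjusted p under 0.05, and 0 with DESeq2), beside 10.7% of all genes called lower and 8.4% higher. The median log2 fold change (log2FC) of the members was -0.33 at day 21 and -0.44 at day 35, while the median of all tested genes was -0.01 at both. Both comparisons use the same 4 naive WT libraries.

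At day 35, 14 of 37 tested members of complex I were lower, 3 of 4 of complex II, 3 of 9 of complex III, 2 of 13 of complex IV and 6 of 17 of complex V. Of all tested genes 10.7% were called lower, and the 2 of 13 of complex IV lie close to that share. Ndufv2, an iron-sulfur subunit of the NADH-binding arm of complex I, stood at 31.6, 54.7, 48 and 35.9 CPM in naive WT, at 21.9, 20.9 and 25.5 on day 21 and at 23.5, 25.1, 25.2 and 31.2 on day 35. Its EAE libraries all lay below its naive libraries, and its log2FC was -0.89 (SE 0.188, adjusted p = 0.00124) at day 21 and -0.69 (SE 0.172, adjusted p = 0.00646) at day 35. Ndufb6 fell by 1.23 (adjusted p = 0.00945) and 1.17 on the log2 scale (adjusted p = 0.00964), from 5.62 ± 1.39 CPM to 2.35 ± 0.623 and 2.5 ± 0.503. Ndufb9 fell by 0.76 (adjusted p = 0.00578) and 0.73 (adjusted p = 0.006). At day 35 Ndufa1 fell by 0.95 (adjusted p = 0.0113) and Ndufb11 by 0.79 (adjusted p = 0.00193).

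In complex II, Sdhd stood at 27.6, 33.1, 32.5 and 29.7 CPM in naive WT and at 20.8, 19.6 and 19.7 on day 21, and the groups did not overlap. It fell by 0.61 on the log2 scale at day 21 (SE 0.178, adjusted p = 0.0135) and by 0.58 at day 35 (adjusted p = 0.0149), Sdhc by 0.51 (adjusted p = 0.0424) and 0.64 (adjusted p = 0.00984), and Sdhb by 0.43 at day 35 (adjusted p = 0.0179). Sdha was not called at either time. In complex III, Uqcrc1, a core protein, stood at 83.7 to 92.2 CPM in naive WT and at 60.1 to 63.1 on day 21, a fall of 0.51 (SE 0.131, adjusted p = 0.00609). At day 35 the Rieske iron-sulfur protein Uqcrfs1 fell by 0.60 (adjusted p = 0.0411) and Uqcrq, a small subunit of the complex, by 0.55 (adjusted p = 0.0278).

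In complex IV, 0 of 13 tested members were called lower at day 21, where Cox5a, a subunit of the matrix side, was the 1 below an unadjusted p of 0.05 (log2FC -0.59), and Cox6a2 was higher. At day 35 Cox6a1 fell by 0.61 (adjusted p = 0.0253) and Cox6c by 0.66 (adjusted p = 0.0189). In complex V the catalytic alpha and beta subunits fell at both times: Atp5a1 from 242 ± 5.27 CPM to 184 ± 1.46 and 178 ± 33.6 (log2FC -0.39 and -0.45), and Atp5b from 227, 231, 228 and 230 CPM in naive WT to 155, 170 and 180 on day 21 (log2FC -0.44, and -0.50 at day 35). Atp5o, the stalk protein that joins head and membrane part, fell by 0.76 (adjusted p = 0.0137) and 0.61 (adjusted p = 0.0319), and Atp5f1, the b subunit of the stalk, by 0.54 and 0.44. At day 35 against day 21 in WT, 0 of 80 were called, with 0 higher and 5 lower at an unadjusted p under 0.05 and 0 with DESeq2, beside 0.0072% of all genes called higher and 0.0576% lower.

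These counts lean on single libraries. The day 21 count of 17 became 5 without day 21 WT 2, 6 without day 21 WT 1 and 7 without naive WT 2. The day 35 count of 28 became 7 when day 35 WT 2 was left out, 9 for day 35 WT 1, 13 for naive WT 2 and 15 for naive WT 3. Ndufv2, Ndufb9 and Uqcrc1 at day 21 and Ndufv2, Ndufb6, Ndufb9, Ndufb11, Sdhc and Atp5b at day 35 held their calls when any 1 of the 30 libraries was left out and under the other 7 settings run. The summed level of neutrophil markers moved the same way, from 9156 ± 6149 CPM in naive WT to 715 ± 13.3 on day 21 and 680 ± 91 on day 35. Of the 14 neutrophil markers, 13 were lower and 1 was higher at each time, with a median log2FC of -8.69 and -8.48. At each time 7 of 10 border macrophage and 6 of 12 monocyte markers were also lower and 0 higher. Of 15 homeostatic microglia markers, 8 were lower at day 21 and 3 at day 35, with 0 higher. Of 10 astrocyte markers, 3 and 1 were higher and 0 lower. The part of all these markers in the result was not tested.

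**Figure D2:**
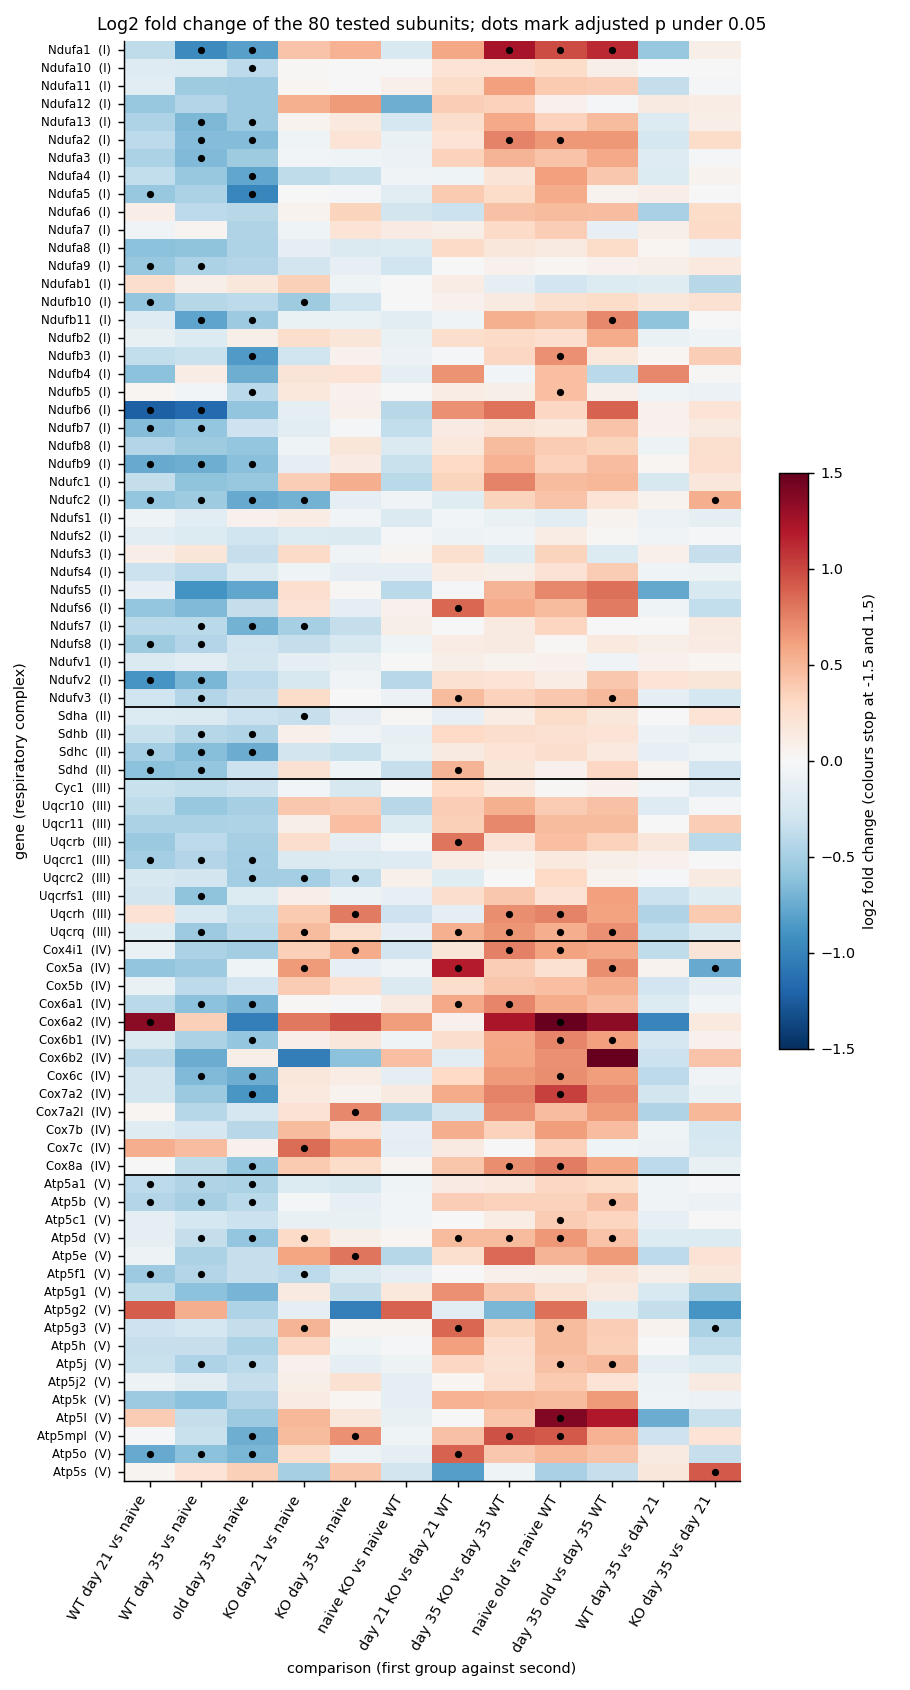
Log2 fold change (colour; red higher and blue lower in the first-named group) of the 80 tested subunit genes (rows, by complex) in the 12 two-group comparisons (columns); dots mark an adjusted p under 0.05. Blue with dots fills the columns of WT and old day 35 against naive (28 and 27 genes lower), and the colours stop at 1.5 in either direction, short of the 2.72 of Cox6a2 in naive old against naive WT.

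Subunits encoded in mitochondrial DNA went the other way. Of 13 such mRNAs, 8 passed the filter. At day 21 in WT, 7 of the 8 were higher and 0 lower, at day 35 5 were higher and 0 lower, and their median log2FC was 1.04 and 0.74. The mRNA mt-Co1, the catalytic subunit of complex IV, rose by 1.19 on the log2 scale at day 21 (adjusted p = 0.00151) while mt-Cytb of complex III rose by 1.01 (adjusted p = 0.00455). The mitochondrial mRNAs summed to 1.22 ± 0.514 times the nuclear members in naive WT (SD, n = 4), 3.17 ± 0.218 times in day 21 WT (n = 3) and 2.65 ± 0.356 times in day 35 WT (n = 4). In KO the ratio was 1.52 ± 0.745 in naive libraries, 3.45 ± 0.224 at day 21 and 2.89 ± 0.374 at day 35, and in old mice 1.1 ± 0.153 in naive and 2.67 ± 0.608 at day 35. Of the 5 untested mitochondrial mRNAs, mt-Nd4l, mt-Co2, mt-Atp6 and mt-Atp8 had 0 counts in every group and mt-Co3 at most 0.031 CPM, so the sums rest on the 8 others.

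Other mitochondrial genes of WT microglia were also tested. Of the 18 tricarboxylic acid cycle genes, 8 were lower at day 21 and 5 at day 35 and 0 were higher, among them malate dehydrogenase Mdh2 (log2FC -0.55 and -0.67). Of 77 tested mitochondrial ribosomal protein genes, 1 was higher and 4 lower at day 21 and 2 higher and 6 lower at day 35. Of the assembly factors at day 21, 1 of 18 for complex I was higher and 1 lower, and 3 of 24 for complex IV were higher and 1 lower. At day 35, 0 for complex I were higher and 1 lower, and 1 for complex IV was higher and 4 lower (median log2FC -0.25). Among single genes, Sqor, which feeds electrons from sulfide to ubiquinone, fell by 1.34 and 1.00, and Slc25a3, the phosphate carrier, rose by 0.41 at day 21 (adjusted p = 0.00286). Ppargc1b, the coactivator PGC-1 beta, rose by 1.32 at day 21 and 1.08 at day 35, from 5.5 CPM in naive WT to 14 and 11.8. Of the 13 tested regulators of mitochondrial biogenesis, Ppargc1b among them, 1 was higher and 1 lower at day 21 (median log2FC -0.20). At day 35, 2 were higher and 0 lower (median -0.01).

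**Figure D3:**
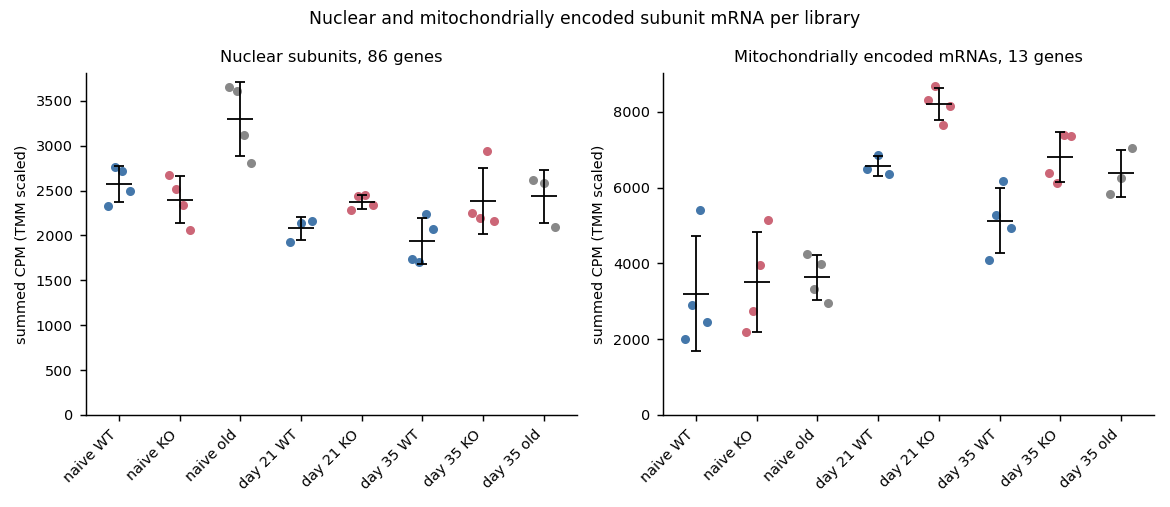
Summed CPM of the nuclear subunit genes and of the mRNAs of mitochondrial DNA in each library, by group. Single libraries of naive and EAE groups overlap in the mitochondrial sums (naive WT 3 stands at 5405 CPM and day 35 WT 1 at 4094), while the mean ratio goes from 1.22 in naive WT to 3.17 in day 21 WT.

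In KO microglia with EAE, single subunit genes changed in both directions. At day 21 against naive KO, 5 of 80 members were higher and 6 lower, where 22.5% of all genes were called higher and 22.7% lower, and the median log2FC was 0.08. At day 35, 5 were higher and 1 lower, beside 11.6% and 9.81% of all genes, with a median of -0.01. The lower genes of day 21 were Ndufb10, Ndufc2 and Ndufs7 of complex I, Sdha, Uqcrc2 and Atp5f1, and the higher ones were Uqcrq, Cox5a, Cox7c, Atp5d and Atp5g3. Cell type markers moved in the same comparisons: 14 of 15 homeostatic microglia and 13 of 14 neutrophil markers were lower at day 21. At day 35, 11 of 15 homeostatic markers were lower, and 9 of 10 astrocyte, 6 of 8 tested neuron and 5 of 5 erythroid markers were higher. Their part in the members' changes was not tested.

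Cox5a stood at 14, 16, 13.8 and 11.1 CPM in naive KO, at 20.3, 23.4, 19.5 and 22.7 on day 21 and at 10.8, 13.3, 16.3 and 10.3 on day 35. Every day 21 library lay above every naive and day 35 library of KO mice. It rose by 0.64 on the log2 scale at day 21 (SE 0.194, adjusted p = 0.00862) and fell by 0.76 from day 21 to day 35 (SE 0.195, adjusted p = 0.00562). Ndufc2, an accessory subunit of the membrane arm of complex I, went the opposite way, from 24.6 ± 3.79 CPM to 15 ± 2.03 and back to 22.1 ± 3.04 (SD, n = 4 each), with log2FC -0.71 and 0.55. Uqcrc2, the second core protein of complex III, fell by 0.51 at day 21 (adjusted p = 7.75e-04) and by 0.37 at day 35 (adjusted p = 0.0233).

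At day 35 Uqcrh rose by 0.78 against naive KO (SE 0.188, adjusted p = 0.00459), with 36, 32.1, 32.8 and 29.3 CPM in naive KO and 44.9, 45.1, 82.2 and 51.4 on day 35. The day 35 libraries all lay above the naive ones, and replicate 3 was far above the others. Cox4i1 (log2FC 0.56), Cox7a2l (0.72), Atp5e, the epsilon subunit (0.80), and Atp5mpl, a small proteolipid of ATP synthase (0.69), were also higher, with overlapping groups. Cox4i1, Atp5e and Atp5mpl lost these calls when day 35 WT 3, whose labels disagree, was moved to KO. At day 35 against day 21 in KO, 2 members were higher (Ndufc2 and Atp5s) and 2 lower (Cox5a and Atp5g3), beside 13.3% and 11.7% of all genes. In that comparison 12 of 15 homeostatic microglia, 7 of 14 neutrophil, 5 of 5 erythroid and 7 of 8 tested neuron markers were higher. Lower were 6 of 6 tested T and NK cell, 6 of 10 border macrophage and 4 of 12 monocyte markers. The part of these markers was not tested. Without naive KO 2 the day 35 count of 6 became 2, and without naive KO 1 or day 35 KO 4 it became 3; the 4 called between the days became 2 without day 35 KO 1 or without day 21 KO 3.

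Between the genotypes, few members were called: 10 of 80 at day 21 of EAE and 9 at day 35, all higher in KO, and 0 in naive mice. In naive KO against naive WT 0 of 80 were called, with 0 higher and 4 lower at an unadjusted p under 0.05 and 0 with DESeq2, beside 0.238% of all genes called higher and 0.0504% lower. At day 21, 10 members were higher and 0 lower (1 lower at an unadjusted p under 0.05, and 0 lower with DESeq2), beside 9.18% and 9.86% of all genes, and the median log2FC was 0.24. At day 35, 9 were higher and 0 lower (0 at an unadjusted p under 0.05, and 0 with DESeq2), beside 1.79% and 0.829%, with a median of 0.34.

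The day 21 calls were Ndufs6 and Ndufv3 of complex I, Sdhd, Uqcrb and Uqcrq of complex III, Cox5a and Cox6a1 of complex IV and Atp5d, Atp5g3 and Atp5o of complex V. Cox5a had the highest log2FC of all members: its WT libraries stood at 9.21, 9.37 and 9.82 CPM, less than any KO library of that day, a log2FC of 1.18 (SE 0.218, adjusted p = 4.02e-04). Atp5g3, a gene of the c-ring subunit, stood at 18.1, 19 and 17 CPM in WT and at 31.9, 29.3, 36.2 and 33.5 in KO. The groups did not overlap, and the log2FC was 0.86 (SE 0.157, adjusted p = 3.36e-04). Atp5o stood at 9.71, 10.5 and 11.9 CPM in WT and at 20.1, 20, 18.9 and 20.6 in KO (log2FC 0.89, SE 0.219, adjusted p = 0.00527). These 3 held their calls under each of the 37 other settings, while the count of 10 became 4 when day 21 WT 2 was left out, 5 for day 21 WT 3 or day 21 KO 3, and 6 for day 21 WT 1 or day 21 KO 2.

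The test of the difference itself, the change from naive to day 21 in KO minus that in WT, called 5 members, all positive, beside 4.72% of all genes positive and 4.96% negative. They were Cox5a (1.23, SE 0.292, adjusted p = 0.00997), Ndufa12, an accessory subunit of complex I (1.10, adjusted p = 0.0436), Atp5o (1.01, adjusted p = 0.0304), Sdhd (0.84, adjusted p = 0.0275) and Atp5g3 (0.82, adjusted p = 0.016). The same test at day 35 called 0, with 30 positive and 0 negative at an unadjusted p under 0.05 and 10 with DESeq2, beside 0.238% and 0.13% of all genes. For the change from day 21 to day 35 it called 0, with 5 positive and 2 negative at an unadjusted p under 0.05 and 1 with DESeq2, beside 1.86% and 0.807%. The 5 of day 21 became 1 without day 21 WT 3, 2 without day 21 WT 2 or naive WT 3, and 3 without day 21 WT 1, naive KO 2 or naive KO 3; the 0 of day 35 became 8 without day 35 old 1 and 5 without naive WT 1. In day 21 KO, all 15 homeostatic microglia markers were lower and 7 of 12 monocyte markers higher than in day 21 WT, and their part in these differences was not tested.

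At day 35 the genes called were of complexes I, III, IV and V. Ndufa1, an accessory subunit needed to assemble complex I, stood at 8.91, 7.49, 14.5 and 11.8 CPM in KO and at 3.57, 3.04, 5.79 and 5.63 in WT. The groups did not overlap, and the log2FC was 1.24 (SE 0.254, adjusted p = 0.0104). Ndufa2 (log2FC 0.74), Uqcrh (0.70), Uqcrq (0.66), Cox4i1 (0.75), Cox6a1 (0.73), Cox8a (0.70), Atp5d (0.47) and Atp5mpl (0.96) were the others. Leaving out day 35 WT 2 or day 35 KO 3 took the count of 9 to 0, leaving out day 35 WT 1 took it to 1, day 35 WT 4 to 2 and day 35 KO 4 to 4. Moving day 35 WT 3 to KO took it to 6, and Ndufa2, Uqcrh and Atp5mpl were no longer called. Mean EAE scores were 2.75 ± 0.204 in day 35 KO and 1.25 ± 0.289 in day 35 WT (SD, n = 4 each), and 5 of 14 neutrophil markers were higher in KO; their part was not tested.

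**Figure D4:**
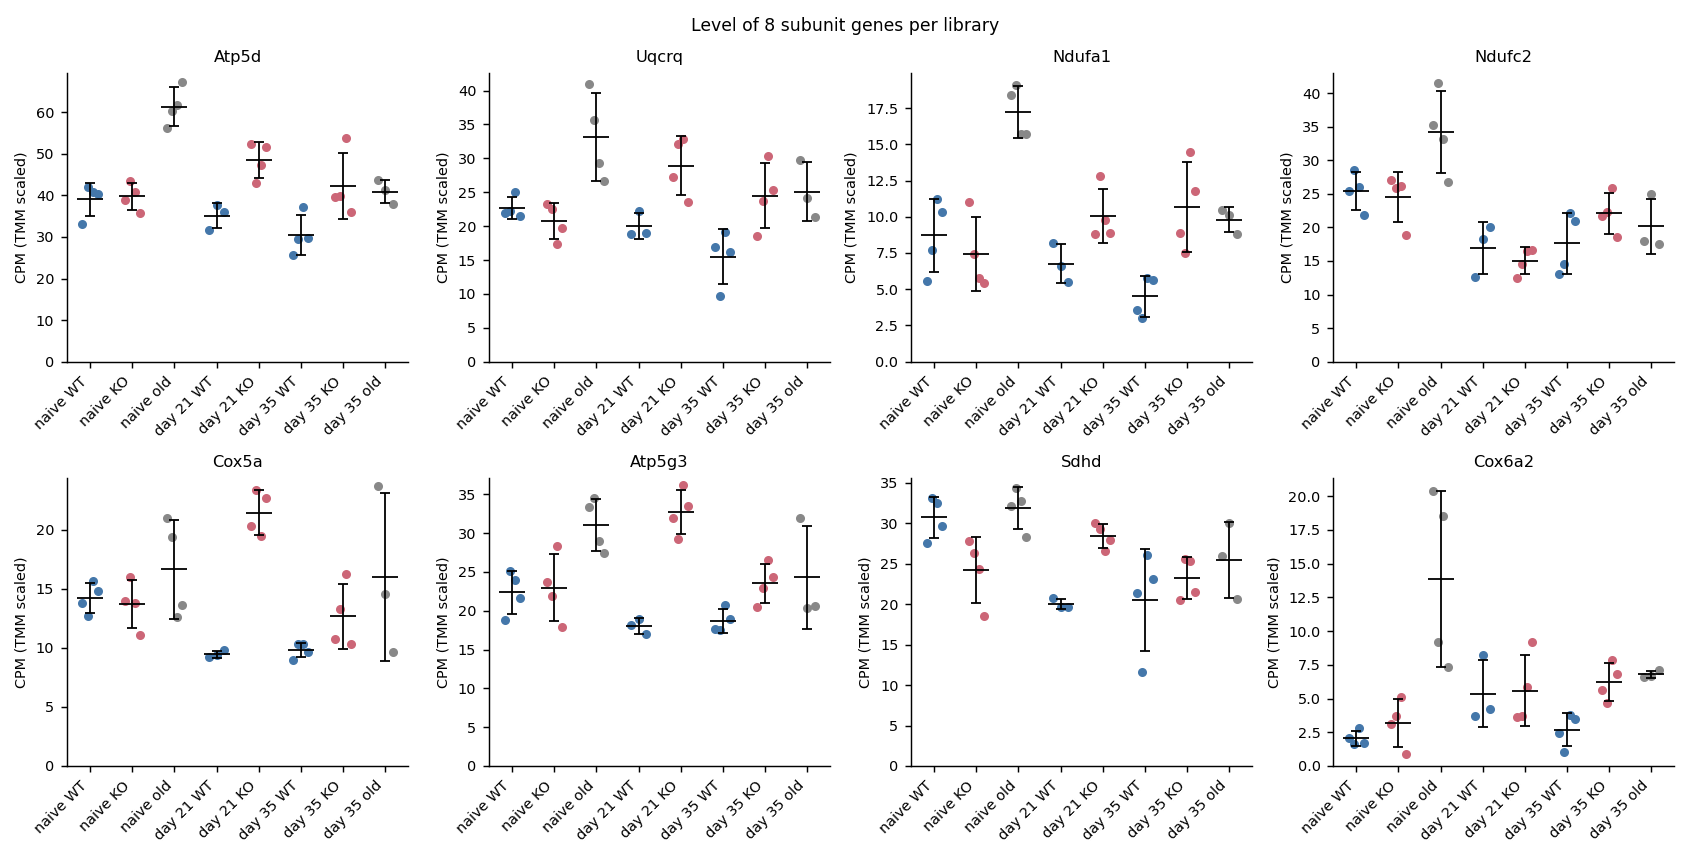
CPM (TMM scaled) of 8 subunit genes in each library, by group, with group means. Cox5a in day 21 KO (19.5 to 23.4 CPM) lies above day 21 WT (9.21 to 9.82), and Cox6a2 is highest in naive old (7.34 to 20.4).

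In old microglia many of these genes were higher than in young WT microglia. In naive old against naive WT, 18 of 80 members were higher and 0 lower (0 lower at an unadjusted p under 0.05, and 0 with DESeq2), beside 5.03% of all genes called higher and 3.15% lower. The median log2FC was 0.40, and 77 of 80 were positive. By complex, 4 of 37 in complex I, 0 of 4 in complex II, 2 of 9 in complex III, 6 of 13 in complex IV and 6 of 17 in complex V were higher.

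Atp5d, the delta subunit of the central stalk, stood at 56.2, 60.2, 61.8 and 67.3 CPM in naive old and at 33.2, 42, 40.8 and 40.3 in naive WT. It rose by 0.65 on the log2 scale (SE 0.119, adjusted p = 9.53e-04), and the groups did not overlap. Cox7a2 stood at 29, 29, 29.3 and 24.3 CPM against 12.9, 11.7, 14.5 and 15.7 (log2FC 1.02, SE 0.22, adjusted p = 0.00422). Further complex IV genes that were higher were Cox8a (0.77), Cox6b1 (0.73), Cox6c (0.70) and the ubiquitous isoform Cox4i1 (0.60). Ndufa1 rose by 0.98 (adjusted p = 0.0114), Uqcrh by 0.74 (adjusted p = 0.0144) and Atp5mpl by 0.92 (adjusted p = 0.0114). Leaving out naive WT 1 took the count of 18 to 5, naive WT 4 to 6, naive old 1 to 7 and naive old 2 to 9.

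Cox6a2 had the highest log2FC of any member in any two-group comparison. It lies at chr7:128205435-128206387 on the minus strand (GRCm38, ENSMUSG00000030785) and stood at 20.4, 9.18, 18.5 and 7.34 CPM in naive old (at least 42 counts a library) and at 2.06, 1.64, 2.84 and 1.71 in naive WT (7 to 19 counts). Every old library lay above every WT library, and the log2FC was 2.72 (SE 0.429, adjusted p = 1.97e-04). It was also higher in day 21 WT against naive WT (log2FC 1.35, SE 0.458, adjusted p = 0.0338), while day 35 old against day 35 WT (1.34, adjusted p = 0.0515) and day 35 KO against day 35 WT (1.22, adjusted p = 0.108) were not called. Itgax, which encodes CD11c and lies 54.8 kb away, was higher in the same pair of comparisons, by 2.88 (adjusted p = 2.12e-05) and 2.60 (adjusted p = 2.22e-05). Itgam, on the far side of Itgax, was called in neither (log2FC 0.12, adjusted p = 0.539, and 0.03, adjusted p = 0.902). Itgad, on the opposite strand, shares 70 exon bases with Cox6a2 and had at most 0.751 CPM in a group mean.

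Old microglia with EAE at day 35 had lower levels than naive old ones: 27 of 80 members were lower and 0 higher (0 higher at an unadjusted p under 0.05, and 0 with DESeq2), beside 8.03% of all genes called lower and 10.4% higher, with a median log2FC of -0.45. The lower genes were 12 of complex I, 2 of complex II, 2 of complex III, 5 of complex IV and 6 of complex V. Ndufa5, an accessory subunit, fell by 0.98 (SE 0.202, adjusted p = 0.00182), from 21.6 ± 5.1 CPM (n = 4) to 11 ± 1.79 (n = 3). Ndufs7, an iron-sulfur subunit of complex I, fell by 0.71 (adjusted p = 0.00256), Sdhc by 0.75 (adjusted p = 0.00605), Uqcrc2 by 0.52 (adjusted p = 0.00585), Cox7a2 by 0.87 (adjusted p = 0.0131) and Atp5d by 0.58 (adjusted p = 0.00317). The count became 5 without day 35 old 3, 12 without naive old 1 and 13 without naive old 2, and 0 with only these 2 groups in the fit. In the same comparison 7 of 15 homeostatic microglia and 6 of 10 border macrophage markers were lower and 9 of 10 astrocyte markers higher (median log2FC 2.90), and their part was not tested.

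At day 35, old against WT gave 9 members higher and 0 lower (0 lower at an unadjusted p under 0.05, and 0 with DESeq2), beside 7.51% and 1.94% of all genes, with a median log2FC of 0.41. They were Ndufa1 (1.12), Ndufb11 (0.72), Ndufv3 (0.49), Uqcrq (0.69), Cox5a (0.70), Cox6b1 (0.62), Atp5b (0.44), Atp5d (0.43) and Atp5j (0.49). The 3 old libraries differed: Cox5a stood at 23.7, 14.6 and 9.7 CPM, the highest in replicate 1, which also had the highest neutrophil marker sum (32522 CPM). Leaving out day 35 old 1 took the count of 9 to 0, day 35 WT 2 to 2, day 35 WT 1 to 3, day 35 KO 3 to 15, day 35 WT 3 to 16 and day 35 old 3 to 24. With only these 2 groups in the fit it was 0, and with the i5 index as a block it was 5, where Ndufv3, Cox5a, Cox6b1, Atp5b and Atp5j lost their calls. Mean EAE scores also differed, at 2.83 ± 0.144 in day 35 old (SD, n = 3) and 1.25 ± 0.289 in day 35 WT (n = 4). In old microglia 13 of 14 neutrophil markers and 8 of 12 monocyte markers were higher than in WT. The part of the score and of these markers was not tested. The difference between the changes with EAE in old and in WT mice called 0 of 80, with 0 positive and 3 negative at an unadjusted p under 0.05 and 0 with DESeq2, beside 0.0216% of all genes in each direction.

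Short mRNAs moved with these comparisons, and the members are short: their median mRNA length was 863 bases, against 3063 for other tested protein-coding genes. In day 35 KO against WT the median log2FC of members was 0.52 up to 800 bases, 0.26 from there to 1500 and 0.13 above 1500, and that of other coding genes was 0.42, 0.13 and -0.02. In naive old against naive WT members had 0.48, 0.39 and 0.22, and other genes 0.32, 0.15 and -0.02. In WT at day 35 against naive, members had -0.53, -0.44 and -0.38, and other genes -0.34, -0.20 and -0.02. The class over 1500 bases held 20 members, and these medians are given as a description. With offsets fitted to mRNA length, an alternative chosen after seeing the data, the called members became 2 in day 35 KO against WT, 5 in day 35 old against WT, 6 in naive old against WT, 12 in WT and 11 in old mice at day 35 against naive. Those of day 35 old against WT were 4 higher and 1 lower (Ndufa7, log2FC -0.72). In KO against naive the calls went up, to 7 higher and 8 lower at day 21 and 5 higher and 4 lower at day 35. At day 21 in KO against WT the 10 higher became 9 higher and 1 lower (Ndufa6): 8 were called the same way in both fits, Cox6a1 and Uqcrb lost their calls, and Atp5b was called higher only with the offsets.

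**Figure D5:**
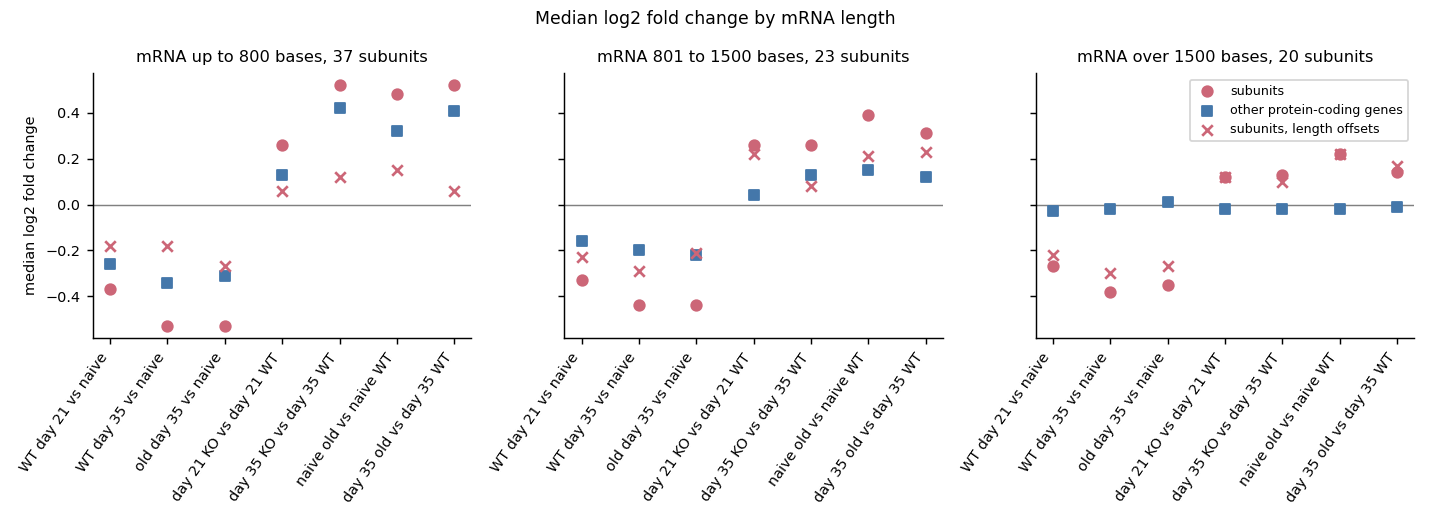
Median log2 fold change of subunit genes and of other tested protein-coding genes in 3 classes of mRNA length (up to 800, from there to 1500, and over 1500 bases), by comparison. In WT at day 35 against naive the members over 1500 bases lie at -0.38 and other genes of that class at -0.02.

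Some members share exon bases with another gene: 27 of 86, of which 25 with a gene on the opposite strand and 3 on the same strand. Atp5j shares 397 bases with Gabpa (71 CPM on average) and Cox6c shares 250 with Vps13b (191 CPM). The kit keeps strand, but the strand setting of the counting is not given in the sources used here, so the reads of such pairs may be shared.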

How the data were processed

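RNA of sorted microglia was sequenced in 30 libraries of 8 groups, grouped by title. Count columns were tied to samples by the group and plate well in the authors' sample table. The deposited table holds whole-number read counts per gene, not normalized; CASAVA, bcl2fastq, STAR and GRCm38 are named in the submitters' processing notes, and the sources used here do not give the read counter, its strand setting or any version. EAE scores are the deposited score of each sample. Of 32 count columns 2 were not used. GENCODE M21 matched 45229 of 46078 genes.

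Genes were kept with edgeR's filterByExpr (minimum count 10, total 15), scaled with TMM and tested with edgeR 4.0.16 (R 4.3.3, limma 3.58.1) by the quasi-likelihood test over 8 group means, with 22 residual degrees of freedom, in 16 comparisons, Benjamini-Hochberg adjusted over 13880 genes. The script was tested on simulated data. DESeq2 1.42.0, RLE scaling, no filter, only the groups compared, i5 index as a block, day 35 WT 3 moved to KO, mRNA length offsets and each library left out were alternatives.

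Named genes are, per comparison and complex, up to 3 called members each way with the largest log2FC and at least 5 CPM, and fixed isoforms and Sdh genes; other called members named in lists were chosen after their values were seen. Members and lists were chosen with earlier results of these data known. Kinases with Rps6k symbols were left out of the cytosolic ribosome list after values were seen.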

Additional observations from a re-analysis of the deposited data

Results flagged for a closer look

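Of 342 sets of 4 libraries of a group, 26 (7.6%) had 1 library far from the others; chance alone flags about 1 in 20. In day 35 KO, replicate 3 stood apart in the sum of all members (2938 CPM against 2165 to 2245 in the others), complex I (998.346), complex III (324.005) and complex IV (498.892), and in Ndufa2 (40.6), Ndufa5 (18.2) and Ndufb3 (10.4 CPM). In the same group replicate 4 was low in Atp5a1 (162.237 CPM) and replicate 1 high in Cox6b2 (1.93).

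In naive old, replicate 4 was low in Cox7a2 (24.3 CPM), Ndufb11 (22.2), Sdhb (42.8) and Uqcrc1 (80.2), and replicate 2 was high in Cox6b2 (3.21) and Ndufv2 (60.1). In naive KO, replicate 4 was low in Ndufc2 (18.9) and Ndufs7 (27), replicate 3 in Ndufa12 (5.28) and Ndufv2 (27.9), and replicate 2 was high in Cox7a2 (16). In naive WT, replicate 1 was low in Atp5a1 (233.909), replicate 3 in Ndufs7 (25.7) and replicate 2 in Uqcrc2 (38.5), and replicate 2 was high in Sdhb (56.8). In day 21 KO, replicate 3 was high in Atp5g1 (7.36) and replicate 4 in Ndufa4 (10.4).

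By the edgeR test of that difference, the change from naive to day 21 differed between KO and WT for 5 of 80 members. They were Cox5a (1.23), Ndufa12 (1.10), Atp5o (1.01), Sdhd (0.84) and Atp5g3 (0.82 on the log2 scale). Of all genes, 4.72% were called positive and 4.96% negative. The 5 became 1 without day 21 WT 3 and 2 without day 21 WT 2 or naive WT 3.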

How the results depend on the processing

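Counts of called members are given with their value as reported first. No filter on low counts changed day 35 KO against WT from 9 to 2, WT day 21 against naive from 17 to 11, WT day 35 against naive from 28 to 16, KO day 35 against naive from 6 to 3 and day 35 old against WT from 9 to 4. With only the groups compared in the fit, the counts became 19 (from 10) in day 21 KO against WT, 2 (from 9) in day 35 KO against WT, 17 (from 11) in KO day 21 and 2 (from 6) in KO day 35 against naive, 11 (from 18) in naive old against WT, 0 (from 9) in day 35 old against WT, 0 (from 27) in old day 35 against naive, and 12 (from 5), 2 (from 0) and 2 (from 0) in the genotype differences at day 21, at day 35 and between the days. DESeq2 gave 15 in day 35 KO against WT, 16 in day 35 old against WT, 10 in the genotype difference at day 35 and 1 in that between the days. Length offsets gave 2 in day 35 KO against WT, 12 in WT day 35 against naive, 6 in naive old against WT, 5 in day 35 old against WT, 11 in old day 35 against naive and 2 in the genotype difference between the days. RLE scaling gave 2 in the genotype difference at day 35. In day 35 old against WT, the i5 index as a block gave 5 and moving day 35 WT 3 to KO gave 15. The causes were not tested.

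Leaving out 1 library gave 0 to 0 in naive KO against naive WT, 4 to 12 in day 21 KO against day 21 WT, 0 to 13 in day 35 KO against day 35 WT, 5 to 20 in WT day 21 against naive, 7 to 36 in WT day 35 against naive, 0 to 0 in WT day 35 against day 21, 8 to 14 in KO day 21 against naive, 2 to 8 in KO day 35 against naive, 2 to 4 in KO day 35 against day 21, 5 to 26 in naive old against naive WT, 0 to 24 in day 35 old against day 35 WT, 5 to 38 in old day 35 against naive, 1 to 7 in the genotype difference in EAE at day 21, 0 to 8 in the genotype difference in EAE at day 35, 0 to 1 in the genotype difference from day 35 against day 21, 0 to 0 in the age difference in EAE at day 35. Of 130 named gene and comparison pairs that were called, 24 held the call under every setting, 106 lost it under at least 1 and 0 reversed. No paired analysis was possible because the replicate numbers follow accession order and the labels give none. Depth limits the 6 untested members, and with 3 or 4 libraries a group a missed call does not show that levels were alike.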

Other observations

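Glycolysis genes, from a list of 21, moved in some of the same comparisons. In day 21 KO against WT, 8 were higher and 1 lower (median log2FC 0.46), among them aldolase Aldoa (0.94, adjusted p = 4.06e-04), lactate dehydrogenase Ldha (0.90, adjusted p = 6.28e-04) and enolase Eno1 (0.80, adjusted p = 0.00234). In naive old against naive WT, 9 were higher and 0 lower (median 0.56), with Aldoa at 0.94, the glucose transporter Slc2a1 at 0.61 and phosphofructokinase Pfkl at 0.56. In WT at day 21 against naive, 3 were higher and 1 lower. The KO change to day 21 minus the WT change called 6 positive and 1 negative, Ldha among the positive (1.12, adjusted p = 0.00433). Of all genes, 9.18% were called higher and 9.86% lower in day 21 KO against WT. The shares were 5.03% and 3.15% in naive old against naive WT and 9.51% and 12% in WT at day 21. For the difference of the changes they were 4.72% positive and 4.96% negative.

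Cytosolic ribosomal protein genes, also short, had 36 of 80 tested higher in naive old against naive WT, beside 5.03% of all genes. In KO at day 21 against naive 35 were higher and 2 lower, beside 22.5% and 22.7%. In day 21 KO against WT 0 were higher and 1 lower, beside 9.18% and 9.86%. At day 35, 18 were higher and 1 lower in KO against WT (median log2FC 0.52), beside 1.79% and 0.829% of all genes. In old against WT 21 were higher and 0 lower (0.50), beside 7.51% and 1.94%. Hif1a, a regulator of the hypoxia response, rose by 0.68 in naive old against naive WT (adjusted p = 8.90e-04) and by 0.46 in day 35 KO against WT (adjusted p = 0.0439).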
